A study of Mus musculus with 6 samples.

Results

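The 8 genes described here encode enzymes that use ketone bodies (*Oxct1*, *Bdh1* and *Acat1*), that oxidize fatty acids inside mitochondria (*Hadh*, *Hadha* and *Hadhb*), or that carry long-chain fatty acids into them (*Cpt1a* and *Cpt2*). They were taken by symbol from a table of 47729 genes, of which 40914 had counts, and were measured in islets of *Akita* and wild-type (WT) mice. The set was chosen by its measured values, since it was picked because *Oxct1* is lower in *Akita* islets. The differences of all 8 genes between the genotypes are therefore given as a description, with no p-value. No numeric threshold was part of the choice.

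*Akita* mice carry 1 *Ins2* allele with the C96Y substitution, which misfolds proinsulin and leads to diabetes. They were on the C57BL/6J background and, by the study's methods, males. The WT mice were of the same age, postnatal days 19 to 21, and their strain and sex are not given separately. By the study, *Akita* mice of this age still had normal body weight and normal fed and fasting blood glucose. They were already glucose intolerant. Whole islets were cultured overnight in medium with 11.1 mmol/l glucose. Each genotype had 3 libraries, each from the pooled islets of 3 mice and from 120 ng of total RNA, so that errors describe the spread between pools. The libraries bear the column names AK4, AK5 and AK6 for *Akita* and WT1, WT2 and WT3 for WT. Expression is given as CPM, counts divided by the library size after correction with TMM factors, which allow for depth and for a few very abundant genes.

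Ketone bodies made by the liver are taken up by other tissues and oxidized in mitochondria. There BDH1 turns 3-hydroxybutyrate into acetoacetate, OXCT1 adds coenzyme A to acetoacetate, and ACAT1 splits the product into acetyl-CoA. Long-chain fatty acids enter the mitochondrion as carnitine esters made by CPT1A and turned back by CPT2, and the trifunctional protein of HADHA and HADHB then shortens them. HADH acts on shorter chains, and in β-cells it also restrains insulin secretion through glutamate dehydrogenase. OXCT1 is needed to oxidize ketone bodies, and suckling mice, which live on fat-rich milk, have high ketone levels.

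To show what lies before the start sites of the genes, promoter windows of 300 bases were read from RefSeq (GRCm38.p6), with 250 bases before each start and 50 bases after it. Windows were found for 7 of the 8 genes, with 2 start sites for *Bdh1*. The 3 printed here belong to *Oxct1*, the lowest of the genes in *Akita* islets relative to WT, to *Cpt1a*, the highest, and to *Hadhb*, whose window also holds most of that of *Hadha*. They are written 5′ to 3′ on the strand of the gene, and capitals mark GC boxes (GGGCGG) and CCAAT boxes on either strand.
Oxct1 promoter (GRCm38.p6 chr15:4026178-4026477, plus strand): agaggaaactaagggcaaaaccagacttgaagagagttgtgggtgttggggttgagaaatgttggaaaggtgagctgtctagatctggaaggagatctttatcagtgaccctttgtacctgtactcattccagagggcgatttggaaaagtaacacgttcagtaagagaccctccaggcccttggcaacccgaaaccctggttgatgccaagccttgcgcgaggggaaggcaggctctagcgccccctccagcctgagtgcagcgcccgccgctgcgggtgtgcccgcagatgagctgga
Cpt1a promoter (GRCm38.p6 chr19:3323051-3323350, plus strand): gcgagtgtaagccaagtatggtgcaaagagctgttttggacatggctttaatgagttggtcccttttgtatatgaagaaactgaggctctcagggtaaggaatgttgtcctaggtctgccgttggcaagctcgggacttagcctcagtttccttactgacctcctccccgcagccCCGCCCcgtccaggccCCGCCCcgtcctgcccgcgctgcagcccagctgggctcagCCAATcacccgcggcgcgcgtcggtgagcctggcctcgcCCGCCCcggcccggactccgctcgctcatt
Hadhb promoter (GRCm38.p6 chr5:30155003-30155302, plus strand): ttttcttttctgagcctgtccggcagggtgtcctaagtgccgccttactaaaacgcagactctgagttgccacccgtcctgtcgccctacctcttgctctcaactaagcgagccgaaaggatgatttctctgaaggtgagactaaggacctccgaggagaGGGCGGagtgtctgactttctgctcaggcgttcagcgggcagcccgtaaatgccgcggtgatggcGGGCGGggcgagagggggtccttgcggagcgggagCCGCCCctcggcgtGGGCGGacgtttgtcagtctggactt

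The *Oxct1* window held neither motif and is thus in lower case throughout, and the first *Bdh1* window held neither as well. The *Cpt1a* window held 3 GC boxes and 1 CCAAT box, and the *Hadhb* window held 4 GC boxes. Of the others, *Hadh* had 4 GC boxes and 1 CCAAT box, *Cpt2* had 3 GC boxes, and *Hadha* and the second *Bdh1* window had 1 each. Over all 32851 windows, 35.7% held a GC box and 37.4% a CCAAT box. The estrogen-related receptor half-site AAGGTCA and the TATA box TATAAA were in none of the 8 windows, on either strand, against 4.72% and 13.6% of all windows. The 13-letter DR1 element, at which nuclear receptors such as PPARα bind, was searched as 1 fixed word and was also in none, against 0.0396% of all windows. Matches of letters are descriptions and do not show binding.

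*Hadha* and *Hadhb* lie head to head on chromosome 5, with 85 bases between the annotated genes, and their windows share 228 bases. *Hadha* runs on the minus strand (chr5:30118304-30155162) and *Hadhb* on the plus strand (chr5:30155248-30184593). The other genes lie apart from each other, with *Oxct1* at chr15:4026383-4155344, *Bdh1* at chr16:31422280-31458901, *Acat1* at chr9:53580522-53610382, *Hadh* at chr3:131233419-131272101, *Cpt1a* at chr19:3323301-3385732 and *Cpt2* at chr4:107903981-107923610. These spans are those of the deposited table on GRCm38.

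All libraries were deep, with 22069554 to 27043169 counts. Among 15407 genes tested by limma-voom with Benjamini-Hochberg adjustment, 117 were higher and 132 lower in *Akita* islets at an adjusted p under 0.05. With library totals in place of TMM factors these were 452 higher and 119 lower. *Ins2*, the mutated gene, had 66967, 83009 and 79816 CPM in AK4, AK5 and AK6, against 131343, 125925 and 144558 CPM in WT1, WT2 and WT3 (log2 fold change -0.81 ± 0.12 SE, adjusted p = 0.0332). A count per gene does not separate the C96Y allele from the normal one. The insulin genes took 11.8 to 12.6% of the counts in *Akita* libraries and 17.6 to 19.2% in WT libraries. Of 12 β-cell markers, 5 were called lower and none higher, and their summed level was 133962 to 158622 CPM in *Akita* and 225023 to 248977 CPM in WT libraries. All 9 α-cell markers had log2 fold changes above 0, with a median of 0.46, and none was called. The 9 acinar markers tested summed to 5210, 138 and 856 CPM in AK4, AK5 and AK6, against 4146, 170 and 4154 CPM in WT1, WT2 and WT3, so that they differed widely within both genotypes. No marker of δ-, PP-, ductal, endothelial, mesenchymal cells or macrophages was called, with list medians from -0.48 for macrophages to 0.82 for PP-cells.

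*Oxct1* was the gene of the set that differed most between the genotypes. It was at 63.7, 72.9 and 61.1 CPM in AK4, AK5 and AK6, against 131.8, 165.5 and 143.4 CPM in WT1, WT2 and WT3. Every *Akita* library lay below every WT library, and the lowest WT value was 1.81 times the highest *Akita* value. The means were 65.9 ± 6.16 CPM in *Akita* and 146.9 ± 17.1 CPM in WT (SD, n = 3 each), a log2 fold change of -1.15 ± 0.11 SE. *Akita* islets thus held 44.9% of the mean WT level. These levels rest on 1761, 1987 and 1535 counts in AK4, AK5 and AK6 and on 3520, 4006 and 2961 counts in WT1, WT2 and WT3. In bulk islets, fewer cells that express a gene and less of its RNA per cell cannot be told apart. By cell counts, the study reported similar β-cell numbers per islet area and similar ratios of β- to α-cells in both genotypes at this age. It also reported lower β-cell mass, smaller β-cells and higher glucagon RNA in *Akita* mice of this age. The part of cell numbers or of RNA per cell in the values of *Oxct1* was not tested.

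*Bdh1*, the enzyme one step before OXCT1, was expressed at a lower level. Its values were 13.5, 12.2 and 14.8 CPM in AK4, AK5 and AK6, against 19.2, 20.5 and 25.7 CPM in WT1, WT2 and WT3. The genotypes did not overlap, although WT3 stood above the other WT pools. The means were 13.5 ± 1.27 CPM in *Akita* and 21.8 ± 3.44 CPM in WT (SD, n = 3 each), with a log2 fold change of -0.67 ± 0.14 SE.

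*Acat1*, the thiolase that completes the ketone pathway and also acts in isoleucine breakdown, did not share this pattern. It was at 115.7, 145.8 and 144.1 CPM in AK4, AK5 and AK6, against 110.6, 125.4 and 125.3 CPM in WT1, WT2 and WT3. AK4 lay among the WT values, whereas AK5 and AK6 lay above them. Its log2 fold change was 0.16 ± 0.11 SE, with means of 135.2 ± 16.9 CPM in *Akita* and 120.4 ± 8.53 CPM in WT (SD, n = 3 each).

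The same values can be written as a ratio of counts within each library, which needs no scaling between libraries. *Acat1* had 1.82, 2.002 and 2.36 counts per *Oxct1* count in AK4, AK5 and AK6, against 0.839, 0.758 and 0.874 in WT1, WT2 and WT3. *Acat1* counts thus exceeded *Oxct1* counts in every *Akita* library and stayed below them in every WT library. The ratio of *Bdh1* to *Oxct1* counts was 0.207 ± 0.037 in *Akita* and 0.1496 ± 0.028 in WT (SD, n = 3 each), with overlapping libraries. As *Oxct1* was chosen for being low, these ratios restate its values, and nothing further is read from them.

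*Hadh*, which catalyses the 3-hydroxyacyl-CoA step for short and medium chains, was the most abundant gene of the set. It was at 348.2, 478.1 and 420.7 CPM in AK4, AK5 and AK6, against 459.5, 650.3 and 562.0 CPM in WT1, WT2 and WT3. The highest *Akita* pool, AK5, lay above the lowest WT pool, WT1. The means were 415.7 ± 65.1 CPM in *Akita* and 557.3 ± 95.5 CPM in WT (SD, n = 3 each), and the log2 fold change was -0.42 ± 0.16 SE, the widest error of the set.

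*Hadha*, the α-subunit of the trifunctional protein, with its hydratase and dehydrogenase activities, varied least. Its values were 96.7, 89.8 and 92.0 CPM in AK4, AK5 and AK6, against 115.2, 121.7 and 116.8 CPM in WT1, WT2 and WT3. The genotypes were apart by little, with the lowest WT value at 1.19 times the highest *Akita* value. The log2 fold change was -0.35 ± 0.07 SE, with means of 92.8 ± 3.49 CPM in *Akita* and 117.9 ± 3.40 CPM in WT (SD, n = 3 each).

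*Hadhb*, the β-subunit with the thiolase activity, forms the complex together with HADHA. It was at 15.8, 18.04 and 16.7 CPM in AK4, AK5 and AK6, against 18.1, 19.9 and 17.3 CPM in WT1, WT2 and WT3. AK5 lay above WT3, so that the genotypes overlapped, and the log2 fold change was -0.13 ± 0.10 SE. *Hadha* had 6.10, 4.98 and 5.52 counts per *Hadhb* count in AK4, AK5 and AK6, against 6.36, 6.11 and 6.74 in WT1, WT2 and WT3. This ratio did not overlap between the genotypes, but AK4 at 6.10 and WT2 at 6.11 were nearly equal.

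*Cpt1a*, the malonyl-CoA-sensitive entry step of long-chain oxidation, was the one gene of the set that was higher in every *Akita* library. It was at 54.5, 64.4 and 54.9 CPM in AK4, AK5 and AK6, against 43.6, 41.4 and 45.03 CPM in WT1, WT2 and WT3. The lowest *Akita* value was 1.21 times the highest WT value. The means were 57.9 ± 5.59 CPM in *Akita* and 43.4 ± 1.80 CPM in WT (SD, n = 3 each), a log2 fold change of 0.42 ± 0.09 SE.

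*Cpt2*, on the inner membrane, did not separate the genotypes. It was at 56.0, 60.7 and 45.7 CPM in AK4, AK5 and AK6, against 54.0, 51.2 and 49.6 CPM in WT1, WT2 and WT3. The WT values lay inside the *Akita* range, and the log2 fold change was 0.06 ± 0.11 SE. *Cpt1a* had 0.974, 1.06 and 1.20 counts per *Cpt2* count in AK4, AK5 and AK6, against 0.807, 0.810 and 0.907 in WT1, WT2 and WT3, again without overlap.

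Of the 8 genes, all of which passed the filter on low counts, 3 lay lower in every *Akita* library than in any WT library, 1 lay higher and 4 overlapped. Over all genes tested, 25.3% did not overlap between the genotypes. Since the genes were chosen with this contrast known, nothing is read from these counts. The median log2 fold change of the 8 genes was -0.24, with 5 values below 0 and 3 above, beside a median of -0.0011 over all genes. Of all genes tested, 3.27% lay as far from 0 as *Oxct1* or farther, and 9.90% as far as *Bdh1*. Because the set was picked on this contrast, neither these shares nor the median measure how unusual the values are.

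**Figure D1:**
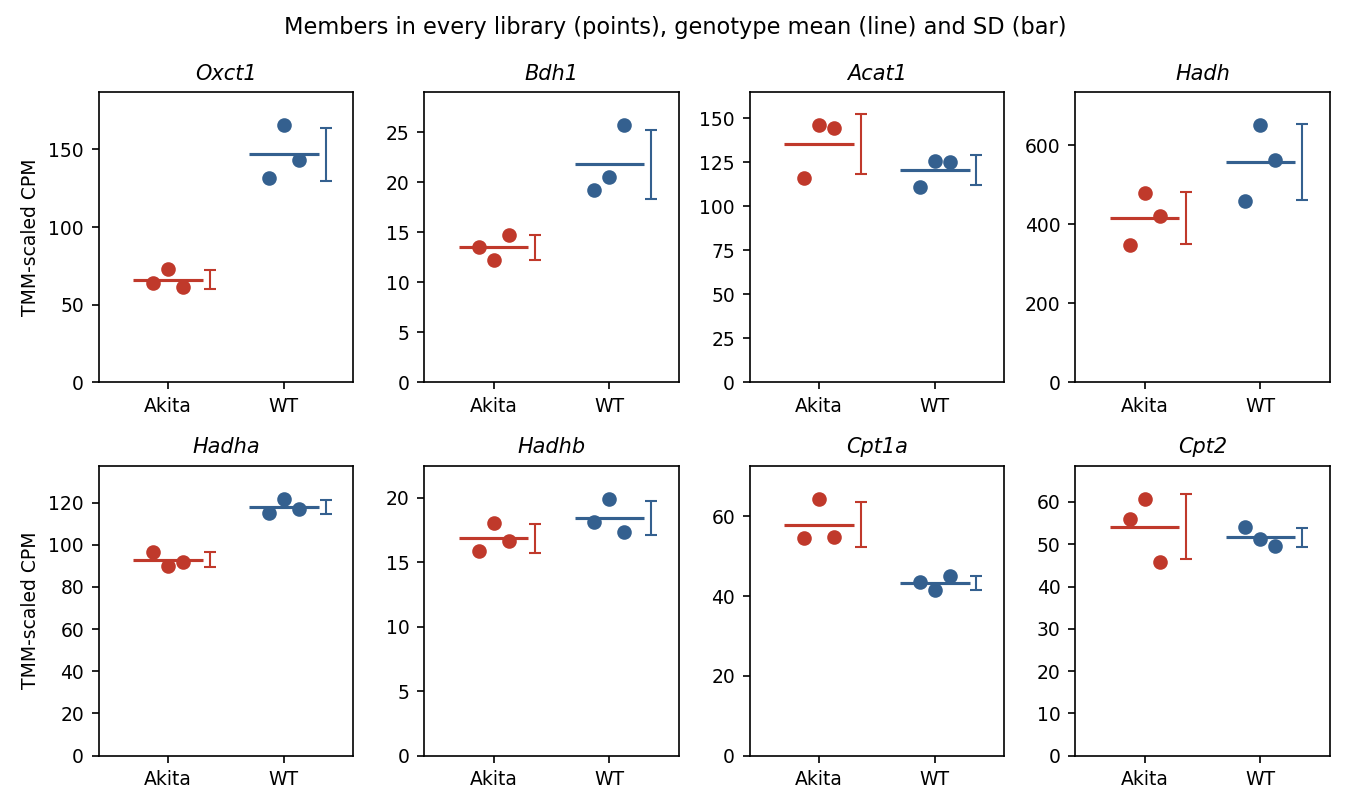
TMM-scaled CPM (linear axes from 0) of the 8 genes in each *Akita* library (left) and WT library (right). Points are libraries, lines are means and bars are SD over 3 libraries. The genotypes are apart in *Oxct1*, *Bdh1*, *Hadha* and *Cpt1a* and overlap in the other 4 genes.

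**Figure D2:**
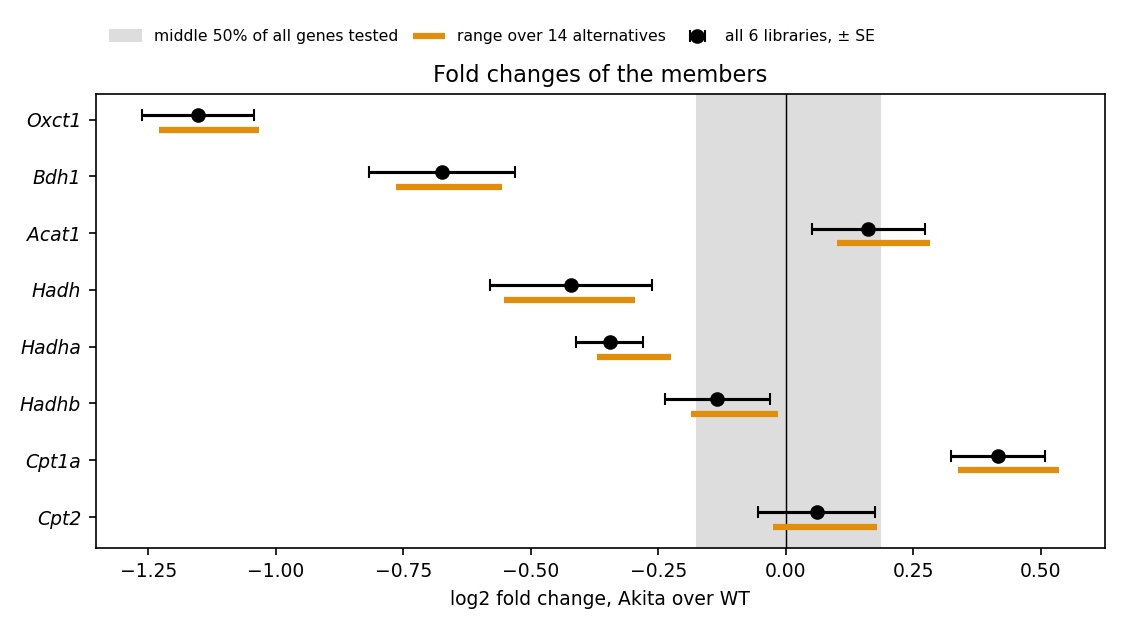
Log2 fold change of *Akita* over WT (x axis) for the 8 genes (rows). Black points with bars are values from all 6 libraries ± SE, orange lines span 14 alternative analyses, and the grey band holds the middle 50% of all genes tested, from -0.17 to 0.19. *Oxct1*, *Bdh1*, *Hadh*, *Hadha* and *Cpt1a* lie outside the band and *Acat1*, *Hadhb* and *Cpt2* within it.

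The scaling bears on the small differences. With library totals in place of TMM factors the median of all genes moved by 0.12 on the log2 scale. The value of *Oxct1* was then -1.03, that of *Bdh1* -0.56, that of *Hadh* -0.30, that of *Hadha* -0.23 and that of *Hadhb* -0.01. That of *Acat1* was 0.28, that of *Cpt1a* 0.54 and that of *Cpt2* 0.18. Across 14 alternatives, including each library left out, the direction stayed the same for every gene of the set except *Cpt2*, which was at -0.03 without AK5.

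*Oxct1* was also set against the abundant β-cell products *Ins1* and *Iapp* within each library. *Oxct1* had 1.55, 1.83 and 1.36 counts per 1000 *Ins1* counts in AK4, AK5 and AK6, against 2.31, 2.80 and 2.36 in WT1, WT2 and WT3. Per 1000 counts of *Iapp*, which encodes islet amyloid polypeptide, it had 2.96, 2.58 and 2.04 in AK4, AK5 and AK6, against 4.32, 4.48 and 3.92 in WT1, WT2 and WT3. Both ratios were lower in every *Akita* library than in any WT library. *Ins1* itself had a log2 fold change of only -0.49. Ratios to β-cell products that differed as much as *Oxct1* were not taken. Since *Oxct1* was chosen for being low, nothing is read from these ratios. Some β-cell markers had log2 fold changes close to that of *Oxct1*, such as -1.20 for *Pcsk1*, the proinsulin convertase. Over all 12 β-cell markers the median was -0.63 and the highest value 0.18. The β-cell markers called lower were *Pcsk1*, *Mafa*, *Nkx6-1*, *Ins2* and *G6pc2*, with log2 fold changes from -1.28 for *G6pc2* to -0.66 for *Nkx6-1*. The part of β-cell and other marker levels in the values of the 8 genes was not tested. With the acinar marker level as a covariate, every gene of the set kept its direction.

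Compared per kilobase of annotated exon, the order of the genes differed between the genotypes in the place of *Oxct1*. In *Akita* islets the levels were 83.5 ± 13.1 CPM per kb for *Hadh*, 35.98 ± 4.497 for *Acat1*, 22.7 ± 3.21 for *Cpt2*, 17.8 ± 1.66 for *Oxct1*, 10.6 ± 0.40 for *Hadha*, 7.58 ± 0.73 for *Cpt1a*, 3.47 ± 0.33 for *Bdh1* and 2.55 ± 0.17 for *Hadhb* (SD, n = 3). In WT islets they were 112.0 ± 19.2 CPM per kb for *Hadh*, 39.7 ± 4.63 for *Oxct1*, 32.0 ± 2.27 for *Acat1*, 21.6 ± 0.93 for *Cpt2*, 13.5 ± 0.39 for *Hadha*, 5.67 ± 0.24 for *Cpt1a*, 5.61 ± 0.89 for *Bdh1* and 2.80 ± 0.20 for *Hadhb* (SD, n = 3). *Oxct1* was the fourth of the 8 levels in *Akita* and the second in WT. Neighbours in the order overlapped for *Cpt2* and *Oxct1* in *Akita* and for *Cpt1a* and *Bdh1* in WT, and for no other pair. Over all 6 libraries *Hadh* stood above 98.4% of all genes tested in level per length, *Acat1* above 93.0% and *Oxct1* above 91.4%, whereas *Bdh1* stood above 53.5% and *Hadhb* above 41.7%.

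*Hadhb*, the lowest of the set per length, shares much of its sequence with a pseudogene. Of the 50-base words of its longest coding transcript, the length of 1 read, 62.4% also occur in another annotated gene, and 61.5% in the processed pseudogene *Gm13910* on chromosome 2. That pseudogene itself had only 8, 21 and 16 counts in AK4, AK5 and AK6, against 22, 21 and 15 counts in WT1, WT2 and WT3. Reads from identical stretches cannot be placed at 1 gene, how they were counted is not stated, and the level of *Hadhb* is therefore uncertain. Per 1000 unshared 50-base positions, *Hadhb* was at 22.4 ± 1.48 CPM in *Akita* and 24.5 ± 1.76 CPM in WT, beside 23.5 ± 0.89 CPM in *Akita* and 29.9 ± 0.86 CPM in WT for its partner *Hadha* (SD, n = 3 each). On this scale the libraries of both genes overlapped in *Akita*, and in WT those of *Hadha* lay above those of *Hadhb*. Only the divisor changed, as all counts of each gene were kept. The scale thus holds only if no read from shared stretches was counted. It also replaced 6595 exon bases of *Hadhb* by 1 coding transcript of 2048 bases. *Hadh*, which shares no words, likewise went from 83.5 CPM per kb to 238.9 CPM per 1000 positions in *Akita*.

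The counts of *Oxct1* and *Bdh1* carry a smaller uncertainty of the same kind. A gene on the opposite strand, *BC037032*, covers 12.6% of the exon bases of *Oxct1*, and *Gm15743* covers 13.7% of those of *Bdh1*, while the library kit does not mark strand. *BC037032* had 62, 61 and 55 counts in AK4, AK5 and AK6, against 83, 89 and 53 counts in WT1, WT2 and WT3, few beside the counts of *Oxct1*. *Gm15743* had 20, 25 and 26 counts in AK4, AK5 and AK6, against 33, 25 and 25 counts in WT1, WT2 and WT3. *Hadha* shared 0.66% of its words with another gene and *Acat1*, *Hadh*, *Cpt1a* and *Cpt2* shared none.

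**Figure D3:**
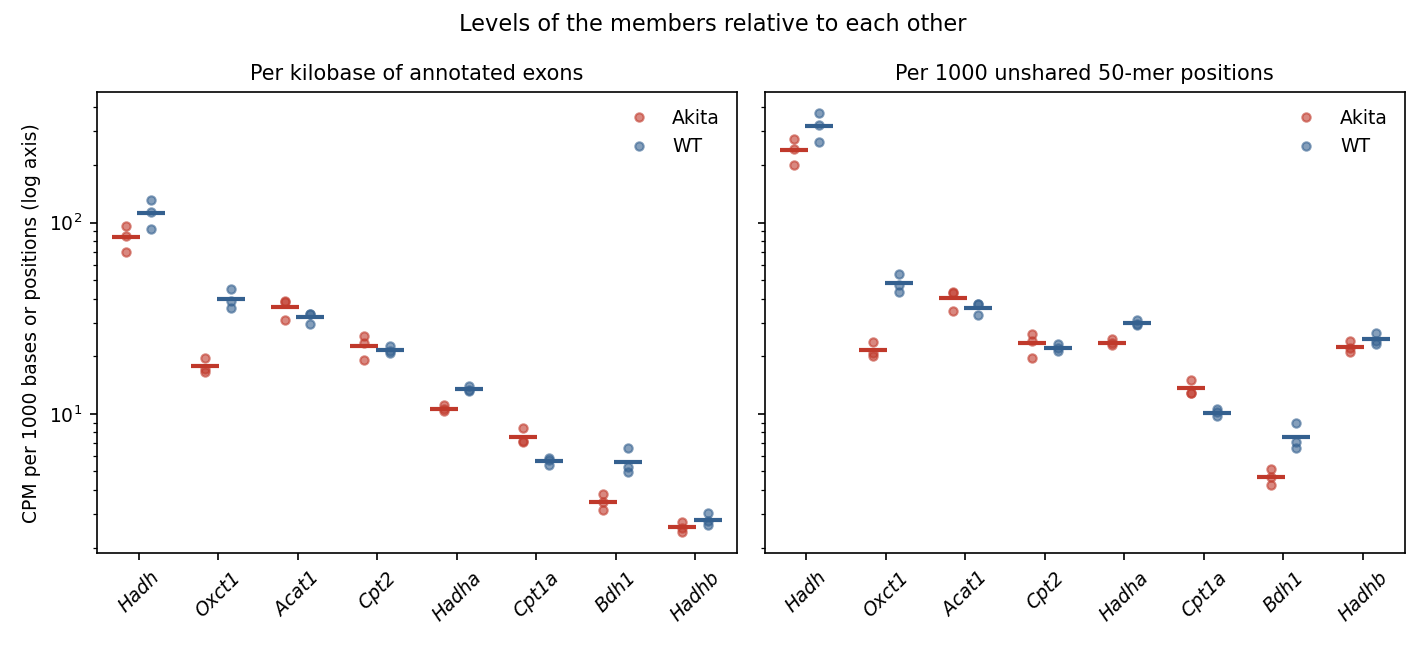
Levels of the 8 genes per kilobase of annotated exons (left panel) and per 1000 unshared 50-base positions of the longest coding transcript (right panel), as TMM-scaled CPM on a log axis. Small points are libraries of *Akita* (red, left of each pair) and WT (blue) islets, and dashes are means. *Hadhb* is at 2.55 in *Akita* and 2.80 in WT in the left panel and at 22.4 in *Akita* and 24.5 in WT in the right panel. Both panels divide the same counts, by different lengths.

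Within a genotype the genes differed in how tightly the pools held together. The SD of log2 CPM within genotypes was 0.05 for *Hadha*, lower than in all but 3.00% of the genes tested, and 0.24 for *Hadh*, higher than in 69.0% of them. It was 0.15 for *Oxct1*, beside a median of 0.17 over all genes. Pearson correlations of deviations from the genotype mean, over 6 libraries that share the scaling, were 0.84 between *Oxct1* and *Hadh* and 0.79 between *Oxct1* and *Hadhb*. They were -0.27 between *Oxct1* and *Bdh1* and 0.19 between *Oxct1* and *Hadha*, the other 2 genes lower in every *Akita* library. AK5 and WT2, the highest pools of their genotypes in *Oxct1*, *Hadh* and *Hadhb*, were the lowest in summed acinar markers (138 and 170 CPM). The part of acinar RNA in these correlations was not tested.

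Genes were also ranked by how closely their log2 CPM followed that of *Oxct1* over the 6 libraries, a measure that rests mainly on the difference between the genotypes. Among 10445 genes with a mean of at least 5 CPM, 132 had a Pearson correlation over 0.95 and 118 one under -0.95. The closest were *Crmp1* (r = 0.999), *Lrrc16b* (0.997), *Ppp1r1a* (0.991), *Fbxl2* (0.989) and *Ebna1bp2* (0.989). *Ppp1r1a*, which encodes protein phosphatase inhibitor 1, was at 104.9, 126.1 and 102.3 CPM in AK4, AK5 and AK6, against 225.7, 237.3 and 219.7 CPM in WT1, WT2 and WT3. *Crmp1*, in spite of the highest correlation, differed by only -0.29 on the log2 scale. The most opposite genes were *Cblb* (-0.997), *Snhg18* (-0.997), *Pde4c* (-0.995), *Atg13* (-0.993) and *Fam102a* (-0.993). Of these, *Snhg18*, a small nucleolar RNA host gene, had the largest difference, at 40.3, 37.1 and 44.2 CPM in AK4, AK5 and AK6, against 15.7, 10.99 and 12.3 CPM in WT1, WT2 and WT3. In the same measure *Hadha* followed *Oxct1* with r = 0.96, *Bdh1* with 0.87, *Hadh* with 0.83 and *Hadhb* with 0.75, whereas *Cpt1a* had -0.88, *Acat1* -0.45 and *Cpt2* -0.15.

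The rest of both pathways was read from 5 lists of 105 further genes, which were tested in the fit over all genes. Of these, 97 passed the filter on low counts, 1 was called lower in *Akita* islets, none was called higher and 96 were not called. Over all genes tested, 0.857% were called lower and 0.759% higher. At an unadjusted p under 0.05 there were 11 higher and 11 lower, 22.7% of the 97 genes, against 2879 genes or 18.7% of all genes tested. The genotypes did not overlap in 25 of the 97 genes, 25.8%, near the 25.3% of all genes, and the median log2 fold change was 0.02.

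The gene called lower was *Acsl4*, on chromosome X, an acyl-CoA synthetase that prefers arachidonic acid and activates fatty acids for lipid synthesis as well as for oxidation. It was at 71.9, 60.5 and 66.6 CPM in AK4, AK5 and AK6, against 103.6, 130.1 and 117.4 CPM in WT1, WT2 and WT3. Every *Akita* library lay below every WT library, with a log2 fold change of -0.82 ± 0.11 SE and an adjusted p of 0.0264 by limma-voom. The call was lost without WT2 (adjusted p = 0.099), WT3 (0.125), AK5 (0.0842) or AK6 (0.110), over a range of 0.0123 to 0.125 in all alternatives, while the direction held in each.

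Among the other ketone genes, 13 were tested, 7 had values above 0 and 6 below, and none was called. *Aacs*, which activates acetoacetate in the cytosol for lipid synthesis, was at 129.1 ± 9.92 CPM in *Akita* and 103.4 ± 5.37 CPM in WT (SD, n = 3 each), with a log2 fold change of 0.32 and an adjusted p of 0.107 by limma-voom. *Hcar2*, a receptor for 3-hydroxybutyrate, had a log2 fold change of -0.66 (adjusted p = 0.154), and *Slc16a6*, a monocarboxylate transporter known in zebrafish to export ketone bodies from liver, one of -0.49 (adjusted p = 0.251). *Oxct2a* and *Oxct2b*, the testis forms of the transferase, had 0 or 1 count in every library, so that nearly all transferase counts were of *Oxct1*.

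For the entry of fatty acids, 20 genes were tested, 13 with values above 0 and 7 below. *Slc25a20*, the carnitine-acylcarnitine carrier that works between CPT1A and CPT2, was at 20.7 ± 1.44 CPM in *Akita* and 15.9 ± 1.34 CPM in WT (SD, n = 3 each), with a log2 fold change of 0.37 and an adjusted p of 0.135 by limma-voom. The fatty acid transport protein gene *Slc27a1* had 0.40 (adjusted p = 0.126) and the thioesterase gene *Acot13* -0.49 (adjusted p = 0.0735). Of the other forms of the first carnitine enzyme, the muscle form *Cpt1b* had at most 3 counts in any library. The brain form *Cpt1c* was at 1.78 ± 0.24 CPM per kb in *Akita* and 2.02 ± 0.15 in WT (SD, n = 3 each), below *Cpt1a* in both.

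In the list for mitochondrial β-oxidation none of 25 further genes was called, with 9 values above 0 and 16 below and a median of -0.04. The list also held genes of branched-chain amino acid and propionate breakdown, *Mut* and *Acadsb* among them. The lowest p-values were those of *Mut*, methylmalonyl-CoA mutase, with a log2 fold change of -0.41 (adjusted p = 0.126 by limma-voom), and of *Acadsb*, a dehydrogenase of short branched chains, with -0.34 (adjusted p = 0.173). The acyl-CoA dehydrogenase genes *Acadvl*, *Acadl* and *Acadm* were at 16.1 ± 0.50, 19.0 ± 2.26 and 6.68 ± 0.31 CPM per kb in *Akita*, against 16.02 ± 0.88, 19.6 ± 1.92 and 6.20 ± 0.05 in WT (SD, n = 3 each). These differences were within the spread of the pools for *Acadvl* and *Acadl*. *Eci2*, an enoyl-CoA isomerase, had a log2 fold change of 0.35 (adjusted p = 0.305) and *Acad12* one of 0.46 (adjusted p = 0.352).

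In the peroxisomal list, 15 genes were tested and none was called. *Ehhadh*, the bifunctional enzyme, was at 53.3, 17.8 and 29.4 CPM in AK4, AK5 and AK6, against 57.0, 67.6 and 51.4 CPM in WT1, WT2 and WT3. AK4 lay among the WT pools and AK5 and AK6 below them, and the log2 fold change of -0.94 ± 0.35 SE did not pass (adjusted p = 0.219 by limma-voom). Without AK4 it did (log2 fold change -1.36, adjusted p = 0.0343). *Pecr*, an enoyl-CoA reductase, had 0.34 (adjusted p = 0.172), the transporter gene *Abcd3* 0.22 (adjusted p = 0.198) and the thioesterase gene *Acot4* -0.54 (adjusted p = 0.329).

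Of 24 genes that control oxidation, through malonyl-CoA or transcription, none was called, and the median was 0.11 with 15 values above 0. *Rxra*, which encodes the partner receptor of the PPARs, was at 53.2, 75.4 and 60.5 CPM in AK4, AK5 and AK6, against 43.3, 40.2 and 44.0 CPM in WT1, WT2 and WT3 (log2 fold change 0.56, adjusted p = 0.0982 by limma-voom). Its libraries did not overlap, and it passed with library totals alone (adjusted p = 0.0420) and without AK4 (0.0371). The mitochondrial deacetylase gene *Sirt3* had 0.46 (adjusted p = 0.168), *Mlycd*, whose product breaks down malonyl-CoA, 0.22 (adjusted p = 0.185), and *Prkab1*, an AMP-activated kinase subunit, -0.35 (adjusted p = 0.174).

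**Figure D4:**
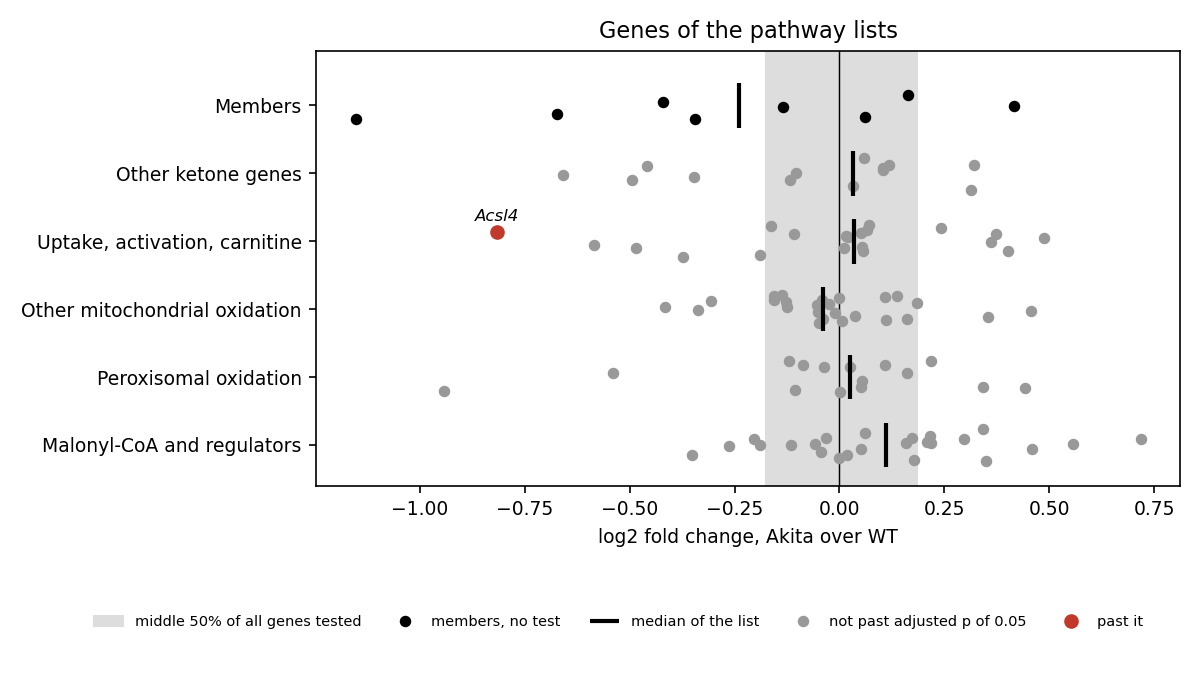
Log2 fold change of *Akita* over WT (x axis) for the 8 genes and for the 97 tested genes of 5 pathway lists (rows, points spread vertically for sight only). Black points are the 8 genes, which were chosen by this contrast and not tested, grey points did not pass an adjusted p of 0.05 over all genes, the red point (*Acsl4*) did, black lines are list medians, and the grey band holds the middle 50% of all genes tested. The medians of the 5 lists lie between -0.04 and 0.11, inside the band, and that of the 8 genes at -0.24.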

How the data were processed

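By the study's methods and the submitters' processing notes, single reads of 50 bases were trimmed with cutadapt 1.12, aligned to GRCm38 with STAR 2.5.2b and counted per gene with HTSeq 0.7.2. Neither the annotation release nor the strand option of the counting is stated in those sources. The authors deposited 1 table of raw counts per gene and library. Its 6 columns of normalized counts and its comparison from DESeq2 1.12.4 (fold changes and p-values) were not used. A mark stood in place of counts in 6815 genes, which were left out. The other 40914 genes held whole counts, and no count model was run on them. The *Akita* columns match the genotype but not single samples.

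Genes were kept with 15 counts in total and, in at least 3 libraries, the CPM that 10 counts give in the library of median size. TMM factors (trims of 30% and 5%) were 1.09, 1.03 and 1.01 for AK4, AK5 and AK6 and 0.989, 0.953 and 0.937 for WT1, WT2 and WT3. The fit was limma-voom (R 4.3.3, limma 3.58.1, pseudocount 0.5), without covariates. It was also run on simulated counts with an equal spread for all genes. That simulation held no differences between pools such as those of the acinar markers, so it does not show that the calls here are sound. Tables were made with Python 3.11.15 and pandas 2.3.3. Exon lengths and transcripts came from GENCODE M21, which has the same span as the authors' table for all genes of the set but *Cpt1a*. The set and the lists were chosen with earlier results of these data known. Named were all 8 genes, in each pathway list every gene called and then those of lowest p up to 4, the 5 genes most and least correlated with *Oxct1* (unnamed gene models and pseudogenes left out), *Ins1*, *Ins2* and called markers. A result that this rule names is not reported here. *Cpt1b*, *Cpt1c*, *Oxct2a*, *Oxct2b*, *Acadvl*, *Acadl*, *Acadm* and *Iapp* were added after their values were seen. Alternatives were other scaling, filters, limma-trend (pseudocount 1), an acinar covariate and each library left out. Sample quality weights and unshared positions were added after the data were seen.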

Additional observations from a re-analysis of the deposited data

How the results depend on the processing

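Of 112 fold changes of the 8 genes under 14 alternatives, 109 moved by less than the spread between pools and 3 by more, all with library totals alone (*Hadha* -0.23, *Hadhb* -0.01, *Cpt1a* 0.54). The number of genes called higher, 117 in the fit reported, was 452 with library totals alone and 272 with sample quality weights, which were added after the data were seen. The number called lower, 132, was 249 with these weights. Leaving out 1 library gave 0 to 344 called higher and 0 to 240 called lower. The totals were 64 without WT1, 7 without WT2, 1 without WT3, 584 without AK4, 49 without AK5 and 0 without AK6, where 2440 genes had an unadjusted p under 0.05 by limma-voom. In the pathway lists, the genes called higher, 0 in the fit reported, were 3 with library totals alone (*Rxra*, *Aacs* and *Acsl1*) and 1 with the quality weights (*Rxra*), and the genes called lower were 2 with the acinar covariate (*Acsl4* and *Acot13*). Leaving out 1 library gave 0 to 3 called higher and 0 to 2 called lower, the highest counts being those without AK4 (*Rxra*, *Acsl1* and *Sirt3* higher, *Acsl4* and *Ehhadh* lower). Levels per length depend on the transcript model: with the longest transcript as the length, *Hadha* was at 23.1 CPM per kb in *Akita* and 29.4 in WT, *Cpt1a* at 13.4 in *Akita* and 10.04 in WT, and *Hadhb* at 3.84 in *Akita* and 4.21 in WT. Per 1000 unshared positions *Hadh* was at 238.9 CPM in *Akita* and 320.3 in WT. *Oxct1* was the fifth of the 8 levels in *Akita* by the longest transcript and the sixth by unshared positions, and the second in WT by both. No paired analysis was possible because the *Akita* columns are numbered 4 to 6 and could not be matched to the replicate numbers of the *Akita* samples. Nor do the study or its sample records state that any WT pool was paired with an *Akita* pool for these libraries. The genotypes were therefore compared as separate groups of pools. Counting error was not separated from variation between pools, and *Bdh1* and *Hadhb* have the fewest counts of the set.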
